A study of Mus musculus with 30 samples.

Results

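The genes described here encode the nuclear corepressor complex built on NCoR, and there are 5 of them: Hdac3, Ncor1, Tbl1x, Tbl1xr1 and Gps2. They were picked by gene symbol out of the 24883 rows of an expression table from mouse tissue. The sample labels name it dorsal hippocampus, and the study's methods name it dorsal hippocampal area CA1 (dCA1). All 5 were found, each on a single row, and all 5 were among the 13184 rows that averaged at least 1 FPKM and entered the tests. FPKM is the number of sequenced fragments of a gene, divided by the length of its transcript and by the fragments mapped in the library, so levels of different genes can be set side by side.

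Hdac3 is a class I histone deacetylase that removes acetyl groups from histone tails and depends on binding to NCoR for its activity. Transcription factors such as nuclear receptors, when they lack an activating ligand, dock the complex on DNA and hold their target genes down. In the dorsal hippocampus Hdac3 is known as a brake on long-term memory for the place of an object, and loss of Hdac3 or of its contact with NCoR lets a short training session form a lasting memory. The study asked how a subunit of the neuronal chromatin remodeler nBAF, CREST (gene Ss18l1), shapes gene expression after training in the object location memory (OLM) task.

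RNA was sequenced from 30 male C57BL/6J mice of wild-type genotype, 6 in each condition and 1 library per mouse. VEH-HC mice received the in vivo-jetPEI transfection reagent without DNA and stayed in the home cage with handling only. VEH-T10 and VEH-T3 mice received the same DNA-free reagent and were trained for 10 min, a threshold period that forms long-term memory, or for 3 min, a subthreshold period that does not. Y397F-T10 mice were trained for 10 min after transfection of a plasmid for HA-tagged CREST carrying the Y397F change (tyrosine to phenylalanine), and Y397D-T3 mice were trained for 3 min after transfection of the Y397D form (tyrosine to aspartic acid). Infusions into dCA1 were made 3 days before training, and tissue was taken 1 h after it. The plasmids carried a miniCaMK2 promoter, which favors excitatory neurons, and all mice kept their own Ss18l1. No condition received unmutated CREST or an empty plasmid, so an effect of the point mutation and an effect of plasmid delivery cannot be told apart. The 4 comparisons with the home cage share the same 6 VEH-HC mice. In bulk tissue, fewer cells of a type and less RNA per cell cannot be told apart.

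Absolute sequencing depth is unknown because FPKM carries no read totals, and the relative depth of the libraries ranged from 0.810 to 1.24 of the median library. Markers of neurons (Rbfox3, Snap25, Slc17a7) summed to between 1355.8 and 1812.0 FPKM and those of CA1 pyramidal cells (Wfs1, Fibcd1, Pou3f1) to between 98.2 and 155.1 FPKM in the 30 libraries. Markers of dentate granule cells (Prox1, Dsp, C1ql2) summed to between 43.0 and 140.9 FPKM, so the libraries held hippocampal tissue and were not CA1 alone. Other tissue varied between mice. The 6 choroid plexus markers summed to between 918.4 and 5606.8 FPKM in VEH-HC (median 3154.0). They summed to between 10.4 and 4476.7 FPKM in VEH-T10 (median 101.6), 28.8 and 10414.8 FPKM in Y397F-T10 (median 55.9), 29.9 and 12800.7 FPKM in VEH-T3 (median 1956.7) and 14.2 and 2842.4 FPKM in Y397D-T3 (median 124.5), so every trained condition overlapped VEH-HC. The 3 deep cortex markers (Ctgf, Cplx3, Nxph4) summed to between 6.04 and 10.7 FPKM in VEH-HC and to between 2.76 and 4.06 FPKM in VEH-T10, without overlap, while the other 3 conditions, from 2.29 to 13.6 FPKM, overlapped VEH-HC. VEH-HC mouse 4 stood apart from the other libraries. The deviation of each library from the mean library was ranked against transcript length, and this rank correlation, called the length trend of the library below, was -0.575 in VEH-HC mouse 4 and between -0.383 and 0.385 in the other mice, so long transcripts read low in that library. Without it, limma called 155 rows in VEH-T3 relative to VEH-HC in place of 681, 18 in place of 149 in Y397F-T10, 95 in place of 108 in VEH-T10 and 665 in place of 932 in Y397D-T3, by the threshold given below. Other single libraries moved these counts as much or more: with each of the 12 libraries of a comparison left out in turn, the calls ran from 155 to 1289, 7 to 402, 17 to 184 and 485 to 1053. Results against VEH-HC are therefore given with and without this mouse.

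In home-cage mice, Hdac3 was the most abundant of the 5 transcripts. Hdac3, the catalytic subunit, averaged 35.8 ± 0.863 FPKM (SD, n = 6) and Ncor1, the scaffold that activates it, averaged 29.0 ± 3.14 FPKM. Gps2, a small subunit that bridges the scaffold and the beta-propeller proteins, averaged 13.5 ± 2.23 FPKM. The beta-propeller proteins themselves, which contact histone tails and help exchange corepressors for coactivators, were lower, with Tbl1xr1 at 9.73 ± 0.160 FPKM and Tbl1x at 8.35 ± 1.54 FPKM. Ranges of neighbors in this order did not overlap in VEH-HC except for Tbl1xr1 and Tbl1x. The mean of Hdac3 over all 30 libraries lay above 81.7% of the tested rows, that of Ncor1 above 80.7%, that of Gps2 above 59.2%, that of Tbl1xr1 above 50.6% and that of Tbl1x above 44.6%. Spread over the 30 libraries was smallest for Hdac3, with a coefficient of variation of 6.35%, and largest for Gps2, with 12.5%.

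**Figure D1:**
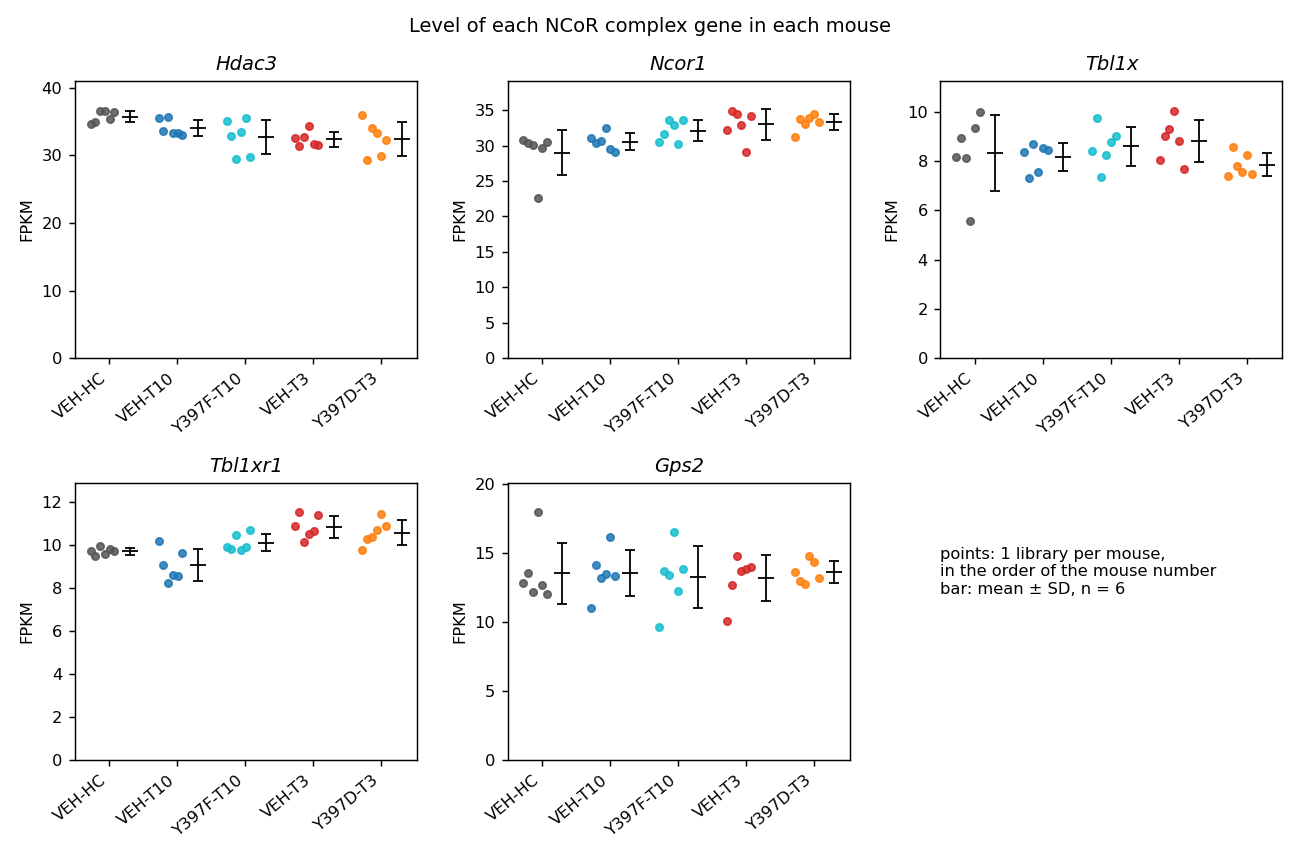
FPKM of each of the 5 genes in each of the 30 mice, 1 panel per gene, with the 5 conditions along the x axis; points are mice in the order of their number and bars are the mean ± SD of 6 mice. Ncor1 and Tbl1x read lowest and Gps2 highest in VEH-HC mouse 4, and Tbl1xr1 is lower in VEH-T10 than in VEH-T3.

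The genes lie apart in the genome and differ widely in length. In the GENCODE annotation of GRCm38, Ncor1 is on the minus strand of chr11:62316426-62458541, where Ttc19, Pigl and a processed pseudogene overlap it on the other strand. Gps2 is on the plus strand of the same chromosome, at chr11:69913888-69916591, with no overlapping gene. Tbl1x lies on the plus strand of chrX:77511013-77662983 and Tbl1xr1 on the plus strand of chr3:22076652-22216594, each with 1 short noncoding gene or pseudogene inside, and Hdac3 lies on the minus strand of chromosome 18 with no overlapping gene. Whether the counting of fragments used the strand is not given in the sources used here, so fragments of a partner on the other strand cannot be told apart from those of Ncor1. The longest annotated transcripts have 9037 bases for Ncor1, 8237 for Tbl1xr1, 5234 for Tbl1x, 3585 for Hdac3 and 1311 for Gps2.

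Few of the 5 genes passed the threshold in any comparison with the home cage, and the changes were small. A gene was called where its limma p, adjusted by the Benjamini-Hochberg method over all 13184 rows, was under 0.05. In VEH-T10 relative to VEH-HC, 0 of 5 genes were called, where 0.819% of all rows were. An unadjusted limma p under 0.05 was reached by 1 of the 5 genes there and by 14.9% of all rows, and a Cyber-T-style test, the kind the study used, called 0 of 5. Its Tukey p covers the 5 conditions but is not adjusted over rows, and where p values are ranged over other settings of the analysis, this p stands beside the adjusted p of the rest. In VEH-T3 relative to VEH-HC, 2 of 5 genes were called, both higher, where 5.17% of all rows were called in either direction and 2.23% as higher. In Y397F-T10 relative to VEH-HC, 0 of 5 genes were called, with 1.13% of all rows called. There, 2 genes and 16.9% of all rows had an unadjusted limma p under 0.05, and the Cyber-T-style test called 0 of 5. In Y397D-T3 relative to VEH-HC, 1 of 5 genes was called, as higher, where 7.07% of all rows were called in either direction and 3.91% as higher. An unadjusted limma p under 0.05 was reached by 3 of the 5 genes in both VEH-T3 and Y397D-T3, and by 21.6% and 24.9% of all rows. The Cyber-T-style test called 0 of 5 genes in VEH-T3 and 1 in Y397D-T3. It called 3.41% of all rows in VEH-T10, 5.03% in VEH-T3, 3.31% in Y397F-T10 and 8.10% in Y397D-T3. Without VEH-HC mouse 4, limma called 0 of 5 genes in each of these 4 comparisons. With so few genes, these counts are a description and carry no test of their own.

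**Figure D2:**
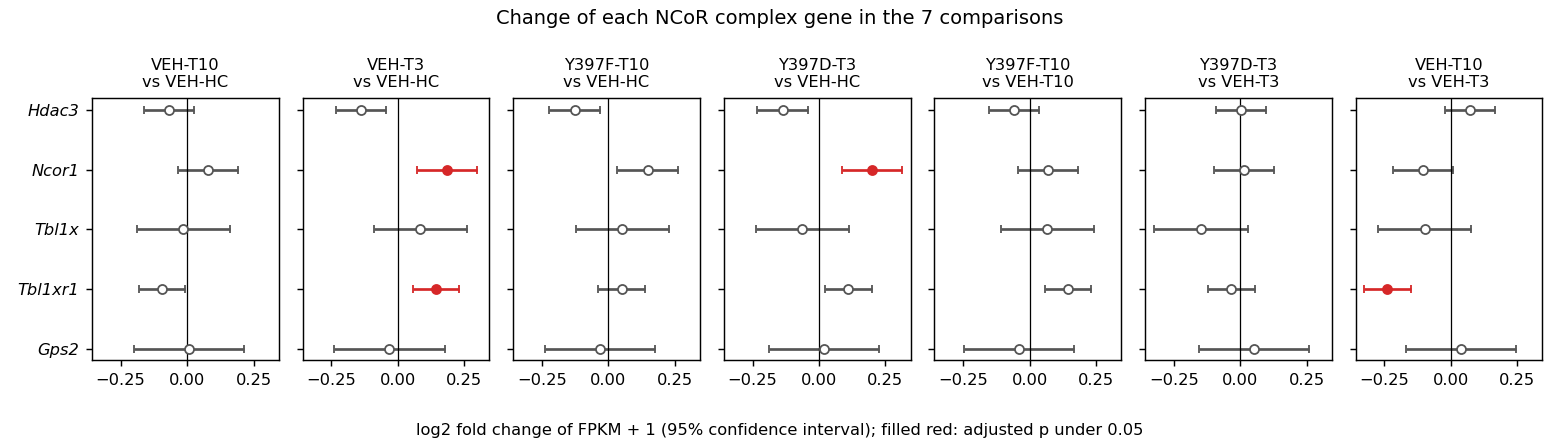
log2 fold change of FPKM + 1 for each gene (x axis, with its 95% confidence interval) in the 7 comparisons, 1 panel each; filled red points have an adjusted p under 0.05. Ncor1 is called against VEH-HC in VEH-T3 and Y397D-T3, and Tbl1xr1 in VEH-T3 against VEH-HC and in VEH-T10 against VEH-T3.

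Hdac3 itself was called in 0 of the 7 comparisons. Home-cage mice spanned 34.7 to 36.6 FPKM (median 35.9), those trained for 10 min 33.1 to 35.7 FPKM (median 33.5) and those trained for 3 min 31.3 to 34.4 FPKM (median 32.1). Y397F-T10 mice spanned 29.5 to 35.5 FPKM (median 33.2) and Y397D-T3 mice 29.4 to 36.0 FPKM (median 32.8). Each trained condition thus had a lower median than the home cage, and the 6 VEH-T3 mice lay entirely below the 6 VEH-HC mice. Such a lack of overlap, in either direction, was seen for 1.99% of all rows in that comparison, and 2 of the 5 genes showed it. The log2 fold change of Hdac3 relative to VEH-HC was -0.14 in VEH-T3 (SE 0.046, limma adjusted p = 0.0740) and -0.14 in Y397D-T3 (adjusted p = 0.0674). It was -0.13 in Y397F-T10 (adjusted p = 0.159) and -0.07 in VEH-T10 (adjusted p = 0.525). The median change of all tested rows was also below 0, between -0.041 and -0.025, in these 4 comparisons. With libraries centered on their median, the change of Hdac3 was -0.12 in VEH-T3 and -0.10 in Y397D-T3. Without VEH-HC mouse 4 it was -0.13 in both (adjusted p = 0.147 and 0.111), and without Y397D-T3 mouse 1 it was -0.17 in Y397D-T3 and passed the threshold (adjusted p = 0.0257).

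Ncor1 rose in both conditions trained for 3 min, and both calls were lost without VEH-HC mouse 4. It read 22.7 to 30.8 FPKM in the home cage (median 30.2), 29.2 to 32.5 FPKM in VEH-T10 (median 30.5) and 29.2 to 34.9 FPKM in VEH-T3 (median 33.5). With the plasmids it read 30.3 to 33.6 FPKM in Y397F-T10 (median 32.3) and 31.2 to 34.5 FPKM in Y397D-T3 (median 33.5). The medians of VEH-T3 and Y397D-T3 were above the highest VEH-HC mouse, and the 6 Y397D-T3 mice did not overlap the 6 VEH-HC mice, which 1 of the 5 genes and 5.52% of all rows showed in that comparison. The log2 fold change relative to VEH-HC was 0.18 in VEH-T3 (SE 0.055, limma adjusted p = 0.0490) and 0.20 in Y397D-T3 (SE 0.055, adjusted p = 0.0280). It was 0.15 in Y397F-T10 (adjusted p = 0.167) and 0.08 in VEH-T10 (adjusted p = 0.540). The home-cage mean rested in part on mouse 4, which read 22.7 FPKM against 29.7 to 30.8 FPKM in the other 5 mice. Without it the log2 fold change was 0.12 in VEH-T3 (adjusted p = 0.116) and 0.13 in Y397D-T3 (adjusted p = 0.0543), and both calls were lost. The log2 fold change was then 0.012 in VEH-T10 and 0.080 in Y397F-T10. The call in VEH-T3 was also lost without VEH-HC mouse 2, 3 or 5 or VEH-T3 mouse 2, 3, 4 or 6, and that in Y397D-T3 without Y397D-T3 mouse 2, 5 or 6, with adjusted p values of at most 0.135 and 0.0674. Over 7 other settings of the analysis the adjusted p ranged from 0.0494 to 0.204 for VEH-T3, where 1 setting kept the call, and from 0.00493 to 0.0624 for Y397D-T3, where 6 kept it.

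The order of Hdac3 and Ncor1 was not the same in every condition. Ncor1 over Hdac3, taken within each library, spanned 0.619 to 0.887 in the home cage (median 0.839) and 0.859 to 0.978 in VEH-T10 (median 0.885). The ratio was below 1 in all 12 of these mice. It spanned 0.852 to 1.14 in Y397F-T10 (median 0.973), 0.921 to 1.11 in VEH-T3 (median 1.02) and 0.869 to 1.15 in Y397D-T3 (median 1.03). Ncor1 exceeded Hdac3 in 2 of 6 Y397F-T10 mice, 3 of 6 VEH-T3 mice and 4 of 6 Y397D-T3 mice, so in these conditions the levels of the scaffold and of the enzyme overlapped. The lowest home-cage ratio was that of VEH-HC mouse 4, and the other home-cage mice spanned 0.825 to 0.887. Across the 30 libraries Ncor1 rose with the length trend (r = 0.716) and Hdac3 fell with it (r = -0.531). The part of the length trend in the ratio was not tested. The ratio was formed after both genes had been seen and is given as a description.

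**Figure D3:**
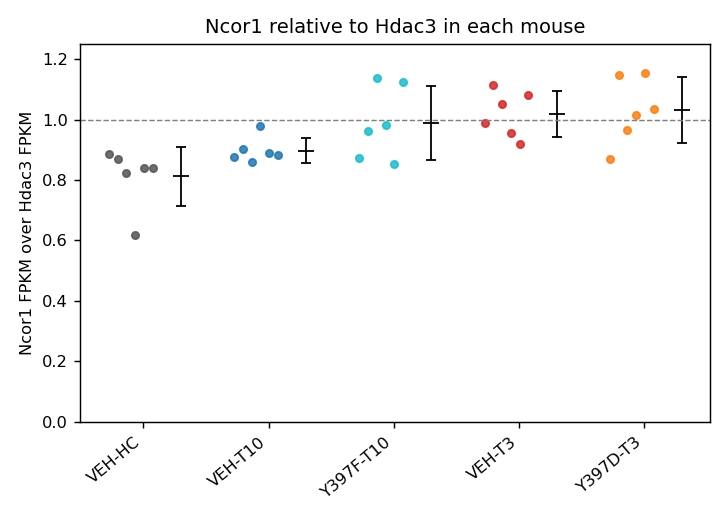
Ratio of Ncor1 FPKM to Hdac3 FPKM in each mouse (y axis, from 0) by condition; points are mice, bars are the mean ± SD of 6 mice and the dashed line marks equal levels. All 12 VEH-HC and VEH-T10 mice lie below the line, and 9 of the other 18 mice lie above it.

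Tbl1xr1 was lower after 10 min of training than after 3 min. Vehicle mice spanned 9.51 to 9.96 FPKM in the home cage (median 9.74), 8.26 to 10.2 FPKM after 10 min (median 8.86) and 10.2 to 11.5 FPKM after 3 min (median 10.8), and Y397D-T3 mice spanned 9.77 to 11.5 FPKM (median 10.6). VEH-HC mice varied little, all 6 VEH-T3 mice lay above them, and 5 of 6 VEH-T10 mice lay below their median. The log2 fold change of VEH-T3 relative to VEH-HC was 0.14 (SE 0.043, limma adjusted p = 0.0461). In VEH-T10 relative to VEH-T3 it fell by 0.24 (SE 0.043, limma adjusted p = 0.0266), a decrease of 16.5% in the mean. It was the 1 gene of the 5 called in that comparison, in which 6 of 13184 rows, or 0.0455%, were called, all of them lower, and a single VEH-T10 mouse overlapped the VEH-T3 range. It was also the 1 gene of the 5 with an unadjusted limma p under 0.05 there, which 8.15% of all rows had, and the 1 called by the Cyber-T-style test, which called 0.614% of all rows. Both calls were close to the threshold. The first was lost without any 1 of the 6 VEH-HC mice (without mouse 4, log2 fold change 0.14 and adjusted p = 0.0939) or without VEH-T3 mouse 2, 3, 4 or 6 (highest adjusted p 0.135), and in 6 of 7 other settings, with adjusted p values from 0.0461 to 0.581. The second was lost without VEH-T10 mouse 3, 4 or 5 or VEH-T3 mouse 1, 2 or 6 (highest adjusted p 0.141), and in 4 of 7 other settings, with adjusted p values from 0.0251 to 0.629. The direction of both was the same in all of these.

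Tbl1x, the X-linked relative of Tbl1xr1, was called in 0 of the 7 comparisons. Levels ran from 5.56 to 9.98 FPKM in the home cage (median 8.54), 7.30 to 8.68 FPKM in VEH-T10 (median 8.40) and 7.69 to 10.04 FPKM in VEH-T3 (median 8.91). Plasmid mice ran from 7.37 to 9.75 FPKM in Y397F-T10 (median 8.60) and from 7.41 to 8.55 FPKM in Y397D-T3 (median 7.68). All conditions overlapped, and VEH-HC mouse 4 was the lowest of the 30 mice. The log2 fold changes relative to VEH-HC lay between -0.06 and 0.08 (SE 0.086), with limma adjusted p values from 0.636 to 0.963. Without VEH-HC mouse 4 the change in VEH-T3 was -0.014 and that in Y397D-T3 was -0.16 (adjusted p = 0.951 and 0.139). In each library Tbl1xr1 was usually the higher of the pair, in 5 of 6 VEH-HC and VEH-T10 mice and in 6 of 6 mice of each other condition.

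Gps2, which is also known as an inhibitor of JNK signaling and of a ubiquitin-conjugating enzyme, showed no called change and the widest spread. Mice of the home cage spread from 12.04 to 18.0 FPKM (median 12.8), VEH-T10 mice from 11.1 to 16.2 FPKM (median 13.4) and VEH-T3 mice from 10.1 to 14.8 FPKM (median 13.8). Y397F-T10 mice spread from 9.67 to 16.6 FPKM (median 13.6) and Y397D-T3 mice from 12.8 to 14.8 FPKM (median 13.4). The means of the 5 conditions lay within 13.2 and 13.6 FPKM, and single mice ranged from 9.67 to 18.0 FPKM. Means over mice vary less than single mice by construction, so these ranges cannot weigh differences between conditions against those between mice. The log2 fold change relative to VEH-HC was between -0.03 and 0.02 in the 4 comparisons (SE 0.101, limma adjusted p from 0.905 to 0.984), and the 95% confidence intervals lay within -0.24 and 0.23. The highest value, 18.0 FPKM, was that of VEH-HC mouse 4, the library in which short transcripts read high. Without it the 4 log2 fold changes were 0.087 in VEH-T10, 0.048 in VEH-T3, 0.046 in Y397F-T10 and 0.099 in Y397D-T3 (limma adjusted p from 0.562 to 0.881).

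The plasmid conditions were next compared with vehicle mice of the same training period. In Y397F-T10 relative to VEH-T10, limma called 0 of 5 genes and 0% of all rows. At an unadjusted p under 0.05 it picked 1 of the 5 genes, Tbl1xr1, and 3.78% of all rows, and the Cyber-T-style test called 0 of 5 genes and 0.228% of all rows. Tbl1xr1 spanned 9.77 to 10.7 FPKM in Y397F-T10 (median 9.93), and all 6 mice lay above the VEH-T10 median of 8.86 FPKM. Its log2 fold change was 0.14 (95% confidence interval 0.056 to 0.23, adjusted p = 1.00). In Y397D-T3 relative to VEH-T3, limma called 0 of 5 genes and 0.00758% of all rows, 0 of 5 genes and 7.87% of all rows had an unadjusted p under 0.05, and the Cyber-T-style test called 0 of 5 genes and 0.736% of all rows. The 95% confidence interval of the log2 fold change was -0.093 to 0.096 for Hdac3, -0.099 to 0.13 for Ncor1 and -0.12 to 0.054 for Tbl1xr1. It was wider for Tbl1x, at -0.32 to 0.028, and for Gps2, at -0.16 to 0.26. Differences as large as the log2 fold change of 0.18 seen for Ncor1 in VEH-T3 against the home cage thus lay outside the interval for Hdac3, Ncor1 and Tbl1xr1 but not for Tbl1x and Gps2.

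Across the 30 libraries the subunits did not all rise and fall together. Of 10 pairs, 3 had a Pearson r with an adjusted permutation p under 0.05. Hdac3 ran against Ncor1 (r = -0.595, adjusted p = 0.00230, Spearman rho = -0.631, adjusted p = 0.00115) and against Tbl1xr1 (r = -0.522, adjusted p = 0.0139, rho = -0.584, adjusted p = 0.00303), while Ncor1 ran with Tbl1xr1 (r = 0.484, adjusted p = 0.0229, rho = 0.664, adjusted p = 0.00115), all from 100000 permutations. Without the 2 libraries farthest from the median of the first gene, r was -0.580, -0.547 and 0.568. Once the mean of each condition was subtracted, r was -0.345, -0.409 and 0.225, and 0 of 10 pairs had an adjusted p under 0.05. Without VEH-HC mouse 4 the 3 values were -0.615, -0.516 and 0.612, with adjusted permutation p values of 0.00220, 0.0132 and 0.00220. With libraries centered on their median, Ncor1 and Tbl1xr1 still ran together (r = 0.591, adjusted permutation p = 0.00480), but Hdac3 no longer passed the threshold with Ncor1 (r = -0.409, adjusted permutation p = 0.0716) or with Tbl1xr1 (r = -0.278, adjusted permutation p = 0.197). Tbl1x and Gps2 passed it only with this centering (r = -0.562, adjusted permutation p = 0.00925, rho = -0.403, adjusted p = 0.0726, and r = -0.360 without 2 libraries, VEH-HC mouse 4 among them).

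The length trend of a library is computed from all rows, so long and short transcripts tend to follow it in opposite directions by construction. It correlated with 4 of the 5 genes across the 30 libraries. The share of all rows with as strong a correlation was not computed. The trend ran from -0.575 to 0.051 in the home cage (median -0.074), -0.383 to 0.195 in VEH-T10 (median -0.10) and -0.270 to 0.385 in VEH-T3 (median 0.157). It ran from -0.065 to 0.256 in Y397F-T10 (median 0.070) and from -0.317 to 0.271 in Y397D-T3 (median 0.077). Y397F-T10, VEH-T3 and Y397D-T3, where Ncor1 had its highest medians, also had the highest medians of the length trend. Across the 30 libraries the trend correlated with Ncor1 (r = 0.716, adjusted permutation p = 0.000150, rho = 0.645, adjusted p = 0.000600) and with Tbl1xr1 (r = 0.582, adjusted permutation p = 0.00190, rho = 0.632, adjusted p = 0.000650), the genes with the longest transcripts. It correlated inversely with Hdac3 (r = -0.531, adjusted permutation p = 0.00448, rho = -0.530, adjusted p = 0.00522) and with Gps2 (r = -0.515, adjusted permutation p = 0.00496, rho = -0.366, adjusted p = 0.0590), the genes with the shortest. For Tbl1x r was 0.321 (adjusted permutation p = 0.0829, rho = 0.094, adjusted p = 0.623). Without VEH-HC mouse 4 and VEH-T3 mouse 2, the libraries farthest from the median, r was 0.555 for Ncor1, 0.561 for Tbl1xr1, -0.446 for Hdac3, -0.382 for Gps2 and -0.040 for Tbl1x. When VEH-HC mouse 4 alone was left out, r was 0.605 for Ncor1, 0.611 for Tbl1xr1 and -0.476 for Hdac3, with adjusted permutation p values of 0.00175, 0.00175 and 0.0145, while Gps2 no longer passed (r = -0.379, adjusted permutation p = 0.0535). With condition means subtracted the values for the first 4 were 0.664, 0.547, -0.384 and -0.545. After the trend with transcript length and GC content was removed from each library, the log2 fold change in VEH-T3 relative to VEH-HC was 0.10 for Ncor1 (adjusted p = 0.158) and 0.07 for Tbl1xr1 (adjusted p = 0.581), and Tbl1xr1 in VEH-T10 relative to VEH-T3 was lower by a log2 fold change of -0.16 (adjusted p = 0.629). In Y397D-T3 relative to VEH-HC the change of Ncor1 remained at 0.17 (adjusted p = 0.00493). The part of the length trend in the calls was not tested beyond these values.

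**Figure D4:**
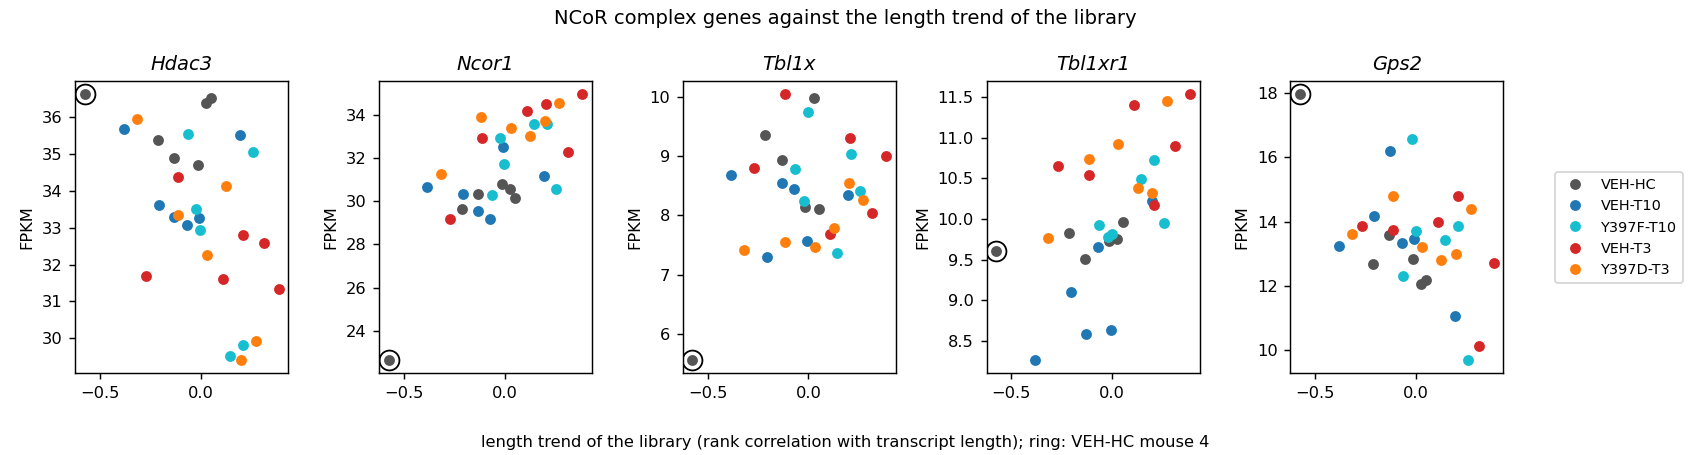
FPKM of each gene (y axis) against the length trend of the library (x axis, rank correlation of its deviation from the mean library with transcript length), 1 point per mouse, colored by condition; a ring marks VEH-HC mouse 4. Ncor1 and Tbl1xr1 climb with the trend (r = 0.716 and 0.582) and Hdac3 and Gps2 decline with it (r = -0.531 and -0.515).

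The genes whose levels followed each subunit most closely over the 30 libraries also differed between subunits. Hdac3 was most like Atp5b, a subunit of the ATP synthase (r = 0.846), Ndufv1 of respiratory complex I (r = 0.814) and the malate dehydrogenase Mdh1 (r = 0.814). Ncor1 was most like the histone methyltransferase Ash1l (r = 0.938), Ppp1r9a, which encodes neurabin (r = 0.917), and the ubiquitin ligase Mycbp2 (r = 0.913). Tbl1xr1 was most like Atxn1 (r = 0.819), the kinase Taok1 (r = 0.798) and the synaptic adhesion gene Nlgn3 (r = 0.788). Tbl1x was most like Arhgap5 (r = 0.803), the nuclear import receptor Tnpo1 (r = 0.798) and Mkln1 (r = 0.765), and Gps2 most like Sh3bgrl3 (r = 0.859), profilin Pfn1 (r = 0.808) and the ribosomal protein Rpl23 (r = 0.805). These are the highest of 13184 rows over libraries that share scaling and tissue makeup, and they carry no test.

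Gps2 also tracked markers of cells other than CA1 neurons, but the share of all rows that did so as strongly was not computed. Of 55 relations between a gene and a marker list, 6 had an adjusted permutation p under 0.05, and 5 of these were with Gps2. Its r was 0.720 with microglia markers (Cx3cr1, C1qa, P2ry12, Csf1r; adjusted permutation p = 0.000550, rho = 0.595, adjusted p = 0.0310), 0.668 with astrocyte markers (adjusted permutation p = 0.00330, rho = 0.504, adjusted p = 0.0508) and 0.609 with dentate granule markers (adjusted permutation p = 0.00807, rho = 0.565, adjusted p = 0.0310). It was 0.538 with thalamus markers (adjusted permutation p = 0.0346, rho = 0.284, adjusted p = 0.415) and 0.509 with oligodendrocyte markers (adjusted permutation p = 0.0390, rho = 0.373, adjusted p = 0.230). Without the 2 libraries farthest from the median of each marker sum, r was 0.609, 0.480, 0.546, 0.249 and 0.419, so the relation to thalamus markers rested on those libraries. The remaining relation was that of Tbl1x with neuron markers, which was inverse (r = -0.522, adjusted permutation p = 0.0298, rho = -0.558, adjusted p = 0.0310, and r = -0.537 without 2 libraries). With condition means subtracted 7 relations passed, all with Gps2. The one of Tbl1x no longer did (r = -0.447, adjusted permutation p = 0.0685), and those of Gps2 with neuron markers (r = -0.488, adjusted permutation p = 0.0434) and erythrocyte markers (r = 0.509, adjusted permutation p = 0.0420) were added. Gps2 was also the only gene of the 5 to pass against the median level of the library (r = 0.520, adjusted permutation p = 0.0171, rho = 0.398, adjusted p = 0.0776). With condition means subtracted that r was 0.559 (adjusted permutation p = 0.00695). Sums of the microglia markers ran from 128.3 to 250.7 FPKM in the home cage (median 209.6) and from 103.8 to 406.5 FPKM in VEH-T10 (median 252.6), so mice of 1 condition differed widely in them. Their part in the level of Gps2 was not tested.

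Other genes of the pathway were counted in lists. Of 6 further partners of the complex (Coro2a, Kdm4a, Zbtb33, Trim28, Csnk2a1 and Ppp4c), 0 were called by limma or by the Cyber-T-style test in any of the 7 comparisons, and 6 of 42 values had an unadjusted limma p under 0.05. Of 4 class IIa histone deacetylases (Hdac4, Hdac5, Hdac7 and Hdac9), which have little enzyme activity of their own and act through Hdac3 and NCoR, 0 were called by either test, and 4 of 28 values had an unadjusted limma p under 0.05. That unadjusted p was reached by 3.78% to 24.9% of all rows, depending on the comparison, and the counts of both lists, 14.3% of their values each, lay within that range. Hdac5 was the most abundant of them, at 44.0 ± 2.40 FPKM over 30 libraries, above Hdac3 at 33.5 ± 2.13 FPKM. The median log2 fold change of the 6 partners relative to VEH-HC lay between -0.073 and -0.016 in the 4 comparisons, and that of all rows between -0.041 and -0.025.

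Among the DNA-binding proteins that recruit NCoR, all 8 calls by limma were decreases, and Nr1d1 supplied 4 of them. Of 13 recruiters, 2 were called in VEH-T10, 2 in VEH-T3, 1 in Y397F-T10 and 3 in Y397D-T3 relative to VEH-HC. Of all rows, 0.501%, 2.94%, 0.66% and 3.16% were called as lower, in the same order. In the 3 comparisons among trained mice 0 recruiters were called. The median log2 fold change of the 13 recruiters relative to VEH-HC lay between -0.045 and 0.030, so the list as a whole did not shift down. The Cyber-T-style test called 3, 2, 1 and 3 of the recruiters relative to VEH-HC and 0 among trained mice. It called 3.41%, 5.03%, 3.31% and 8.10% of all rows relative to VEH-HC. Over the 7 comparisons, 20 of 91 values of the list, or 22%, had an unadjusted limma p under 0.05, 2 of them among trained mice. That p was reached by 3.78% to 24.9% of all rows, depending on the comparison. Nr1d1 was called in all 4 comparisons with VEH-HC, which share the same 6 home-cage mice. It encodes REV-ERB alpha, a heme-bound receptor of the circadian clock that represses through NCoR and Hdac3. Nr1d1 spanned 51.9 to 60.5 FPKM in the home cage (median 55.2), 38.7 to 48.0 FPKM in VEH-T10 (median 43.7) and 36.6 to 49.97 FPKM in VEH-T3 (median 41.7). Y397F-T10 mice spanned 37.5 to 46.5 FPKM (median 43.8) and Y397D-T3 mice 35.6 to 46.0 FPKM (median 40.2). All 24 trained mice lay below all 6 home-cage mice. A lack of overlap with VEH-HC, in either direction, was seen for 2.43% of all rows in VEH-T10 and 1.99% in VEH-T3. It was seen for 1.8% in Y397F-T10 and 5.52% in Y397D-T3. The share of rows in which all 24 trained mice lay apart from VEH-HC was not computed. The log2 fold change of Nr1d1 was -0.36 in VEH-T10 (SE 0.070, limma adjusted p = 0.0147), -0.40 in VEH-T3 (adjusted p = 0.00473), -0.36 in Y397F-T10 (adjusted p = 0.0204) and -0.45 in Y397D-T3 (adjusted p = 0.000711). Leaving out single libraries kept the call in 11 of 12 cases for VEH-T10, 12 of 12 for VEH-T3, 9 of 12 for Y397F-T10 and 12 of 12 for Y397D-T3, and the highest adjusted p was 0.0706. It was lost without VEH-HC mouse 2 in VEH-T10, and without VEH-HC mouse 2 or 4 or Y397F-T10 mouse 6 in Y397F-T10. Of 7 other settings, 5, 5, 5 and 7 kept the 4 calls, with a highest adjusted p of 0.191.

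Its paralog Nr1d2 fell in Y397D-T3, from a median of 16.8 FPKM in VEH-HC to 13.7 FPKM (log2 fold change -0.25, SE 0.065, limma adjusted p = 0.0213). The groups did not overlap, which held for 5.52% of all rows in that comparison. The call of Nr1d2 was lost without Y397D-T3 mouse 2 or 5 (adjusted p at most 0.0590) and in 1 of 7 other settings (highest adjusted p 0.0634). Rxra, the partner with which many nuclear receptors bind DNA, had a median of 8.001 FPKM in VEH-HC, 6.67 FPKM in VEH-T3 and 6.50 FPKM in Y397D-T3. Both trained conditions lay below the home cage without overlap, which 1.99% and 5.52% of all rows showed in either direction. The log2 fold change of Rxra was -0.26 in VEH-T3 (SE 0.072, limma adjusted p = 0.0368) and -0.31 in Y397D-T3 (adjusted p = 0.0103), and the second was kept with each of 12 libraries left out. The first was kept without VEH-HC mouse 1 or VEH-T3 mouse 1 or 5 and lost without any other of the 12, mouse 4 of VEH-HC included (adjusted p at most 0.0846). Of 7 other settings, 3 kept the first (highest adjusted p 0.128) and 7 the second. Thrb, a thyroid hormone receptor, fell from a median of 6.47 FPKM to 4.58 FPKM in VEH-T10 (log2 fold change -0.38, SE 0.089, limma adjusted p = 0.0374), a call that was kept without VEH-HC mouse 4 or VEH-T10 mouse 1 and lost without any other of the 12 libraries (adjusted p at most 0.125) and kept in 6 of 7 other settings (highest adjusted p 0.115). Thra, the other thyroid hormone receptor, was far more abundant, at 283.4 ± 19.7 FPKM over 30 libraries, and was not called. Rara, also not called, went up. It averaged 5.85 FPKM in VEH-HC and between 6.98 and 7.40 FPKM in the trained conditions. Its unadjusted limma p relative to VEH-HC was under 0.05 in VEH-T10, VEH-T3 and Y397D-T3. Of 7 other settings, 1 called it in VEH-T10. The deep cortex markers, whose sums did not overlap between VEH-HC and VEH-T10, moved with that comparison, and their part in it was not tested.

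**Figure D5:**
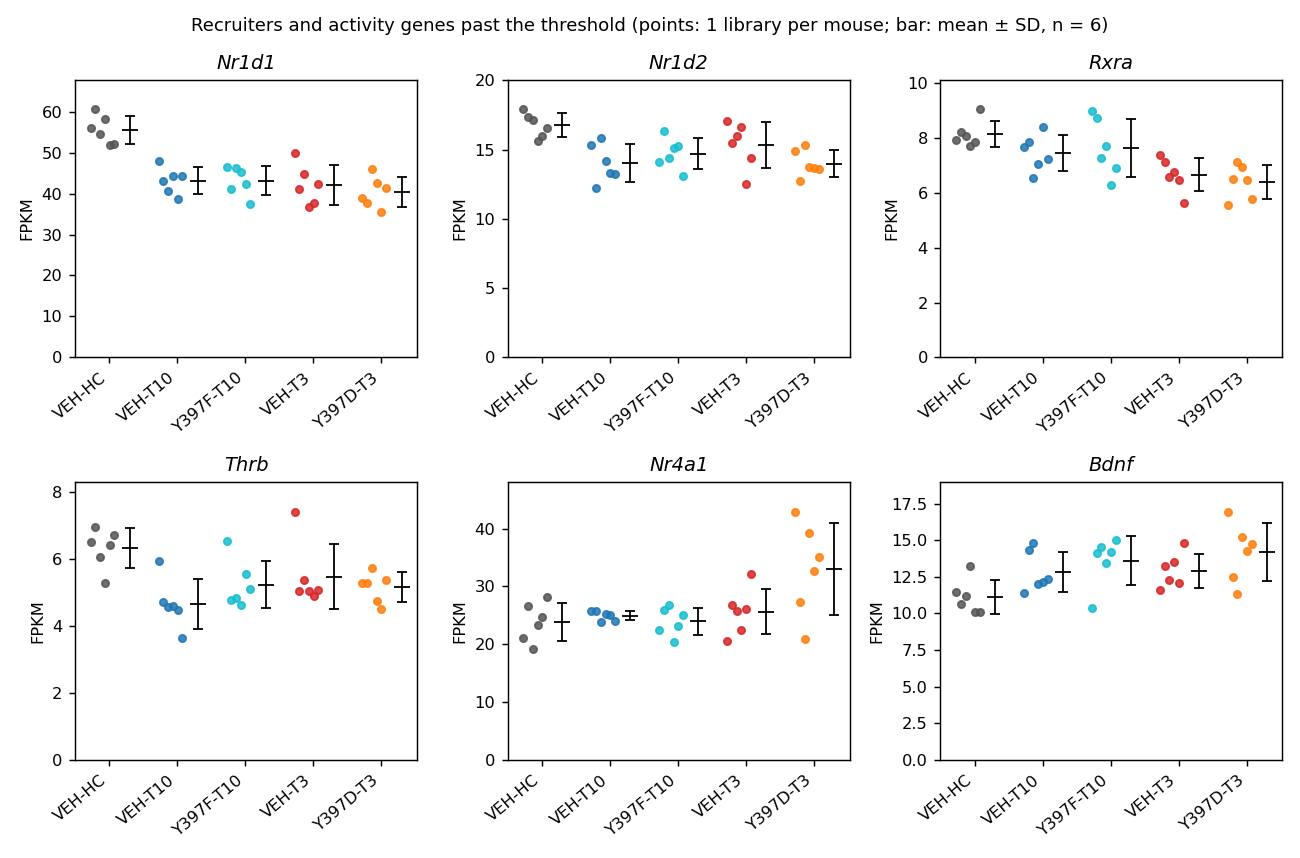
FPKM of the recruiters Nr1d1, Nr1d2, Rxra and Thrb and of the activity genes Nr4a1 and Bdnf in each mouse (y axis, from 0) by condition; points are mice and bars are the mean ± SD of 6 mice. Every trained mouse is below the home-cage mice for Nr1d1 (highest trained value 49.97 FPKM, lowest home-cage value 51.9 FPKM).

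Among 5 activity genes that have been tied to Hdac3 in memory studies (Fos, Nr4a1, Nr4a2, Per1 and Bdnf), 2 were called by limma, both higher and both in Y397D-T3 relative to VEH-HC. In that comparison 7.07% of all rows were called in either direction and 3.91% as higher. Nr4a1, an orphan receptor induced by activity, spanned 19.2 to 28.1 FPKM in the home cage (median 24.03) and 21.0 to 42.9 FPKM in Y397D-T3 (median 33.8, log2 fold change 0.43, SE 0.121, limma adjusted p = 0.0307). Bdnf, the neurotrophin, spanned 10.1 to 13.2 FPKM in the home cage (median 10.9) and 11.3 to 16.9 FPKM in Y397D-T3 (median 14.5, log2 fold change 0.32, SE 0.088, limma adjusted p = 0.0266). The groups overlapped for both genes. The call of Nr4a1 was lost without VEH-HC mouse 1, 3, 4 or 5 or Y397D-T3 mouse 1, 4, 5 or 6 (adjusted p at most 0.0743), and that of Bdnf without VEH-HC mouse 2, 5 or 6 or Y397D-T3 mouse 1, 4, 5 or 6 (adjusted p at most 0.0653). Of 7 other settings, 6 kept the call of Nr4a1 (highest adjusted p 0.0718) and 7 that of Bdnf. The Cyber-T-style test called 1 of the 5 genes in VEH-T10, 1 in VEH-T3, 1 in Y397F-T10 and 3 in Y397D-T3 relative to VEH-HC. It called 3.41%, 5.03%, 3.31% and 8.10% of all rows there. Over the 7 comparisons, 10 of 35 values of this list, or 28.6%, had an unadjusted limma p under 0.05. That p was reached by 3.78% to 24.9% of all rows, depending on the comparison. Fos, an early marker of neuronal activity named here after its values were seen, spanned 3.85 to 6.46 FPKM in the home cage (median 4.58). In VEH-T10 it spanned 6.89 to 9.16 FPKM (median 7.08), without overlap, which 2.43% of all rows showed in that comparison. Its log2 fold change was 0.52 in VEH-T10 (SE 0.139, limma adjusted p = 0.0658), 0.39 in VEH-T3 (adjusted p = 0.0962), 0.32 in Y397F-T10 (adjusted p = 0.230) and 0.40 in Y397D-T3 (adjusted p = 0.0741). Not called by limma, it was called in 4, 2, 0 and 3 of 7 other settings, the Cyber-T-style test among them in all but Y397F-T10. In Y397D-T3 relative to VEH-T3, limma called 0 of these 5 genes, and the log2 fold change of Nr4a1 was 0.33 (adjusted p = 0.546). An unadjusted limma p under 0.05 and a call by the Cyber-T-style test were each reached there by 1 of the 5, Nr4a1, and by 7.87% and 0.736% of all rows.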

How the data were processed

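Per the labels and the study's methods, the authors aligned reads of each mouse's dCA1 RNA to mm10 (TopHat 2.1.1) and derived FPKM with Cufflinks 2.2.1. The deposited FPKM table holds 24883 rows and 30 libraries, all used. Absolute depth is unknown, and relative depth came from 2642 rows at low FPKM, whose values step by single fragments.

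Rows averaging 1 FPKM or more (13184) were fitted as log2(FPKM + 1), which understates changes of low genes, with limma 3.58.1 in R 4.3.3 (all 30 libraries, a coefficient per condition, empirical Bayes with a trend). P-values were adjusted over all rows of a comparison by the Benjamini-Hochberg method. The fit was tested on simulated data. Correlations used 100000 permutations (2-sided), adjusted within 10 pairs, 5 relations to the length trend or library median, or 55 to marker lists. Length and GC content came from GENCODE (GRCm38), matched by symbol for 96.2% of tested rows. Python 3.11.15 ran the other steps.

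Genes, gene lists and tests were chosen with earlier results of these data known. Named are the 5 subunits, the 3 rows most like each, and genes of 4 pathway lists that were called or are closely tied to the complex. Alternatives were a pseudocount of 0.1, no filter (18287 rows above 0 in at least 6 libraries), median centering, only the 12 libraries compared, the replicate number as a block, a loess trend with length and GC content removed (12686 rows), a Cyber-T-style analysis of variance with Tukey p, unadjusted p, and leaving out each library. The tests of the length trend and marker lists, and pairs without VEH-HC mouse 4, were added after the data had been seen. A further item of the pathway lists is not reported here.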

Additional observations from a re-analysis of the deposited data

Results flagged for a closer look

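Among 25 sets of 6 mice (5 genes in 5 conditions), 2 held a mouse set far apart from the other 5, and both were VEH-HC mouse 4. Chance alone marks about 1 in 20 such sets. Ncor1 read 22.7 FPKM in that mouse and 29.7 to 30.8 FPKM in the other 5 home-cage mice. Gps2 read 18.0 FPKM in it and 12.04 to 13.6 FPKM in the others. Without the mouse the home-cage means were 30.3 ± 0.439 FPKM for Ncor1 and 12.7 ± 0.611 FPKM for Gps2 (SD, n = 5). The same library had the lowest length trend of the 30, -0.575, and its part in both values was not tested.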

How the results depend on the processing

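Few calls of the subunits held under other settings. Of all 35 values (5 genes in 7 comparisons), 4 were called, against 2 with no filter, 1 with libraries centered on their median, 0 with only the 12 libraries compared, 1 with the replicate block, 1 with the length and GC trend removed, 2 by the Cyber-T-style test and 11 by unadjusted p. In VEH-T3 relative to VEH-HC the 2 calls became 0 with no filter, with centering, with 12 libraries, with the replicate block, with the length and GC trend removed and by the Cyber-T-style test, and 0 to 2 with a library left out. In Y397D-T3 relative to VEH-HC the 1 call became 0 with 12 libraries, 3 by unadjusted p and 0 to 2 with a library left out. In VEH-T10 relative to VEH-T3 the 1 call became 0 with centering, with 12 libraries, with the replicate block and with the length and GC trend removed, and 0 to 1 with a library left out. Unadjusted p called 1 gene in VEH-T10 and 2 in Y397F-T10 relative to VEH-HC, and 1 in Y397F-T10 relative to VEH-T10. The cause of these differences was not tested. Replicate numbers gave no clear pairing of the mice. In the 7 comparisons the lowest correlation between same-numbered mice was between -0.496 and -0.139 and the highest between 0.144 and 0.521. At most 3 of 6 mice correlated best with their own number, in VEH-T10 relative to VEH-T3. Whether a number marks a shared batch was not tested. The log2 fold change of Tbl1x in VEH-T10 relative to VEH-HC changed sign to 0.017 with centering and 0.013 with the length and GC trend removed. With that trend removed, Gps2 changed sign to 0.089 in VEH-T3 and 0.080 in Y397F-T10 relative to VEH-HC, to 0.0074 in Y397F-T10 relative to VEH-T10 and to -0.016 in VEH-T10 relative to VEH-T3, and Tbl1xr1 to -0.011 in Y397F-T10 relative to VEH-HC and 0.034 in Y397D-T3 relative to VEH-T3. With a library left out, signs changed for Tbl1x relative to VEH-HC in VEH-T10 (-0.11 to 0.036), VEH-T3 (-0.014 to 0.13) and Y397F-T10 (-0.046 to 0.10), for Gps2 relative to VEH-HC in VEH-T10 (-0.041 to 0.087), VEH-T3 (-0.064 to 0.048), Y397F-T10 (-0.096 to 0.047) and Y397D-T3 (-0.0095 to 0.099), and for Gps2 in Y397F-T10 relative to VEH-T10 (-0.10 to 0.039), Y397D-T3 relative to VEH-T3 (-0.018 to 0.083) and VEH-T10 relative to VEH-T3 (-0.030 to 0.093). They also changed in Y397D-T3 relative to VEH-T3 for Hdac3 (-0.027 to 0.029) and Ncor1 (-0.019 to 0.032). None of these sign changes involved a called value. With condition means subtracted, the 3 pairs became 0, r was -0.063 for Tbl1x and Tbl1xr1, and r between the library median and Ncor1 was 0.059. Without VEH-HC mouse 4, r was 0.154 for Hdac3 and Tbl1x, -0.161 for Ncor1 and Tbl1x, 0.207 for Ncor1 and Gps2 and -0.020 for Tbl1x and Tbl1xr1. Over all rows, the 681 calls in VEH-T3 relative to VEH-HC became 341 with centering, 0 with 12 libraries and 232 with the length and GC trend removed. The 108 in VEH-T10 became 46 with centering, 321 with 12 libraries, 162 with the replicate block and 450 by the Cyber-T-style test, the 149 in Y397F-T10 became 42, 43, 176 and 437, and 78 with the length and GC trend removed, and the 932 in Y397D-T3 became 1845 with 12 libraries. The 6 in VEH-T10 relative to VEH-T3 became 0 with centering, with 12 libraries, with the replicate block and with the length and GC trend removed, and 81 by the Cyber-T-style test, which called 30 rows in Y397F-T10 relative to VEH-T10 and 97 in Y397D-T3 relative to VEH-T3 where limma called 0 and 1. Read totals are unknown, so the counting error behind each FPKM value could not be given.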
